A study of Homo sapiens with 4 samples.

Results

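H2AK119ub, histone H2A carrying a single ubiquitin near its C-terminus, was examined here at the ZIC zinc finger genes ZIC1, ZIC2, ZIC4 and ZIC5. The 4 genes were chosen by their family name, with earlier results of these data known. They are 4 of 19821 protein-coding genes with positions in hg38. They form 2 loci, ZIC1/ZIC4 on chromosome 3 and ZIC2/ZIC5 on chromosome 13, and a locus window is the span of the gene pair with 50 kb either side. The windows held 6 of 32791 wild-type peaks and 9 of 34390 knockdown peaks. The cells were H1, an established human embryonic stem cell line grown in mTeSR1 medium, either wild type and untreated or given a short hairpin RNA (shRNA) that targets YTHDF1, a reader of the m6A mark on messenger RNA. Each group had 1 H2AK119ub library, whose peak list was used, and 1 input library, which was not analysed here. The labels name neither the hairpin sequence nor the number of knockdown lines, and peak lists hold no RNA, so the depletion of YTHDF1 was not checked. With 1 library per group there was no replicate spread and no test was run. Read counts are not part of the lists, so sequencing depth is unknown.

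ZIC proteins are transcription factors with a block of zinc fingers related to those of the GLI factors of hedgehog signalling. They act in the early neural plate, at its border and in the neural crest, and ZIC2 is also known from pluripotent stem cells before differentiation. H2AK119ub is placed by Polycomb repressive complex 1 and typically covers CG-rich promoters of developmental regulators that are silent or poised in stem cells. In both ZIC loci the genes of a pair are transcribed away from each other, so their start sites lie between the gene bodies.

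The start sites are shown first because the peaks described below cover all of them. RefSeq start windows (GRCh38.p14, the coordinates of hg38) run from 250 bases before to 50 bases after a start, 300 bases in all. In all, 9 such windows matched, 1 each for ZIC1 and ZIC2, 4 for ZIC4 and 3 for ZIC5. The windows at the outermost start of each gene, and at an inner ZIC4 start 14.2 kb downstream of the outermost one, are printed in lower case with every CG in capitals. The ZIC1 window lies at chr3:147409115-147409414 (+ strand), ZIC4 at chr3:147406494-147406793 (- strand), the inner ZIC4 start at chr3:147392333-147392632 (- strand), ZIC2 at chr13:99981534-99981833 (+ strand) and ZIC5 at chr13:99971860-99972159 (- strand).
ZIC1: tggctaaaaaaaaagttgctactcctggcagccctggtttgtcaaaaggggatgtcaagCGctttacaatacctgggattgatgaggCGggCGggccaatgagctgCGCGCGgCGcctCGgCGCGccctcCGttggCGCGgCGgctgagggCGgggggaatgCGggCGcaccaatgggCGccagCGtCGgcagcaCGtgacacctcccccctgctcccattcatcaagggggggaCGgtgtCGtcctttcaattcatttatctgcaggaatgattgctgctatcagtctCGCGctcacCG
ZIC4: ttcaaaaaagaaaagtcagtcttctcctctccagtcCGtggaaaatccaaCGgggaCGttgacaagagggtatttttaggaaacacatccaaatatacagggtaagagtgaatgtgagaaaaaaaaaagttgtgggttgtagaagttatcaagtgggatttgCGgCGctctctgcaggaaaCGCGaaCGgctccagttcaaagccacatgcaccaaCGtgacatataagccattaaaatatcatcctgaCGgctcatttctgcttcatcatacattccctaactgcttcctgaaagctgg
ZIC4 inner start: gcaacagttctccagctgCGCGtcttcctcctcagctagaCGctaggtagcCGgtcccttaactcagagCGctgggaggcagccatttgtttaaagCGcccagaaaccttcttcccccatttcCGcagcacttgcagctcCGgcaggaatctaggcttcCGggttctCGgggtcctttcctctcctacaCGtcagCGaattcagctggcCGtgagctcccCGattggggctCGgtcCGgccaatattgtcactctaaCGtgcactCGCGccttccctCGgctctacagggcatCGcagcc
ZIC2: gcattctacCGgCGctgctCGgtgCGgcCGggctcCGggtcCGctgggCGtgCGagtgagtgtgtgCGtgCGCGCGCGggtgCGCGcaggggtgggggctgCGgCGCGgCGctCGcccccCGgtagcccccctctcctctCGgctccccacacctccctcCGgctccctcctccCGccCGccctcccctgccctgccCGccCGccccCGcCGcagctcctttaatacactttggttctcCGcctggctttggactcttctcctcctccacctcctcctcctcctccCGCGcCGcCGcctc
ZIC5: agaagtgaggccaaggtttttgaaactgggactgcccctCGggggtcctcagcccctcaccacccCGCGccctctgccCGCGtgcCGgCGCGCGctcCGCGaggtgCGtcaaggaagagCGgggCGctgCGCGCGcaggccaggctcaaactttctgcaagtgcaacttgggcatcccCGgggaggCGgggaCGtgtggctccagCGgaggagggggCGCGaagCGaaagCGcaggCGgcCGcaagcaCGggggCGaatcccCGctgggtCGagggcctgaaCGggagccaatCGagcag

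The outermost starts differed in CG number. ZIC2 had 35 CG and 75.0% G+C, ZIC5 33 CG and 70.3%, and ZIC1 26 CG and 61.3%. The outermost ZIC4 window was AT-rich, with 10 CG and 43.3% G+C, while its inner start had 21 CG and 59.7%. The other inner ZIC4 windows held 7 and 2 CG, and the inner ZIC5 windows 18 and 22. Among 22132 windows of 15812 protein-coding genes the median was 21 CG. At least as many CG as at ZIC2 were found in 18.3% of them, as many as at ZIC5 in 22.2%, as many as at ZIC1 in 39.0% and as many as at the outermost ZIC4 start in 70.1%. Windows with 20 or more CG lay wholly inside peaks of both lists in 73.9% of cases, those with 10 to 19 in 51.6% and those with under 10 in 18.5%. Over all windows the share was 53.5%. All 9 ZIC windows lay wholly inside peaks of both lists, including the 2 with under 10 CG, which sit within the body of the ZIC1/ZIC4 peak. In each list the windows of a locus lay in 1 and the same peak, so the 9 are not separate observations. The sequence CCAAT, searched on both strands, was counted in the same windows. Among the printed ones it occurred 2 times at ZIC1, 2 times at the inner ZIC4 start and 1 time at ZIC5. It did not occur in the windows of ZIC2 and the outermost ZIC4 start. The other inner ZIC4 windows, with 7 and 2 CG, held it 3 and 1 times. The inner ZIC5 windows, with 18 and 22 CG, held it 1 and 4 times, and the latter overlaps the outermost ZIC5 window. Of all protein-coding windows 34.6% held it. A match is a run of letters and shows no binding.

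**Figure D1:**
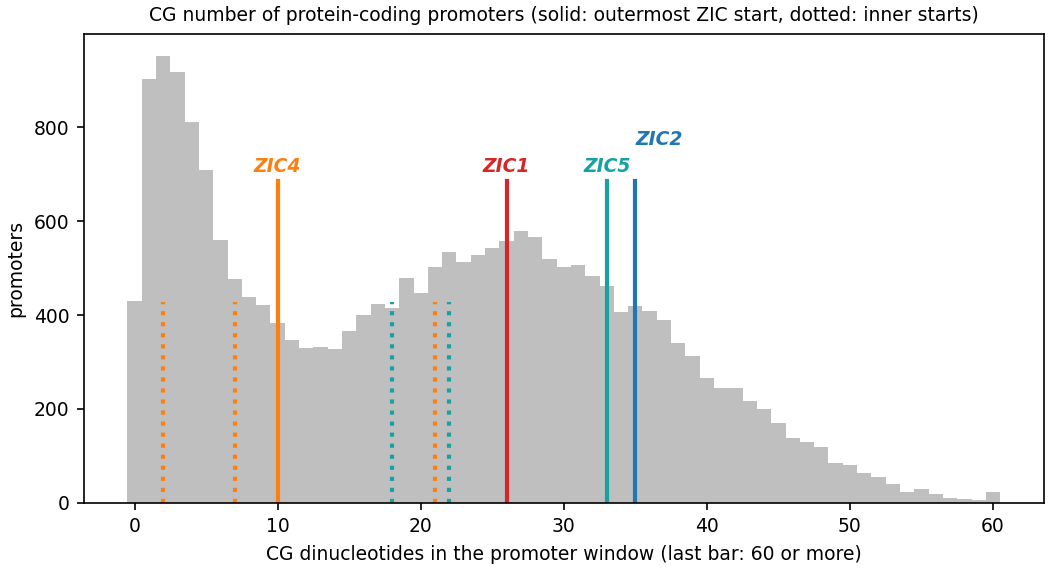
Bars count the start windows of protein-coding genes (y axis) by their number of CG dinucleotides (x axis, 300 bases per window). Solid lines mark the outermost start of each ZIC gene, with ZIC4 at 10, ZIC1 at 26, ZIC5 at 33 and ZIC2 at 35, and dotted lines the inner starts of ZIC4 and ZIC5.

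The ZIC1/ZIC4 locus lay in a single H2AK119ub peak of almost the same width in both lists. ZIC1 (chromosome 3, 147409365 to 147416719) is known for its part in cerebellar and neural crest development, and ZIC4 (147386046 to 147406543) is its divergent neighbour, with start sites 2.82 kb apart. The wild-type peak ran from 147353601 to 147429200, a width of 75.6 kb. The knockdown peak ran from 147352801 to 147428200, a width of 75.4 kb. Both genes lay wholly inside it in each list. The left edge, on the ZIC4 side, was 0.8 kb farther out in knockdown cells and the right edge, on the ZIC1 side, 1 kb farther in, where the step of the lists is 200 bp. The peaks had 74.6 kb in common, which was 98.7% of the wild-type and 98.9% of the knockdown width. The mark was not centred on the pair: it reached 32.4 kb past the end of ZIC4 and 12.5 kb past the end of ZIC1 in wild-type cells, and 33.2 and 11.5 kb in knockdown cells. The peak also held the antisense gene ZIC4-AS1 and the predicted protein-coding gene LOC124909494 over their whole length, and the part of the long noncoding gene LOC440982 nearest to ZIC1, 7.87 kb in wild-type and 6.87 kb in knockdown cells.

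No other peak lay in this window in either list. The nearest other peak was 809 kb away in wild-type cells and 808 kb in knockdown cells. Peaks of 20 kb or more numbered 927 and 603, their median distance to the nearest other peak was 1.2 kb in each list, and the ZIC1/ZIC4 peak had the greatest distance of them in both lists. The next greatest was 486 kb in wild-type cells and 629 kb in knockdown cells. Of all peaks of any width, 118 other wild-type and 125 other knockdown peaks lay at least as far from a neighbour. With the ZIC peak counted, the median widths of this group were 4 and 3.2 kb, and the widest after the ZIC peak measured 16.2 and 16.4 kb. The distance was looked at because the window was seen to hold 1 peak, so it is a description chosen after the values were seen.

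**Figure D2:**
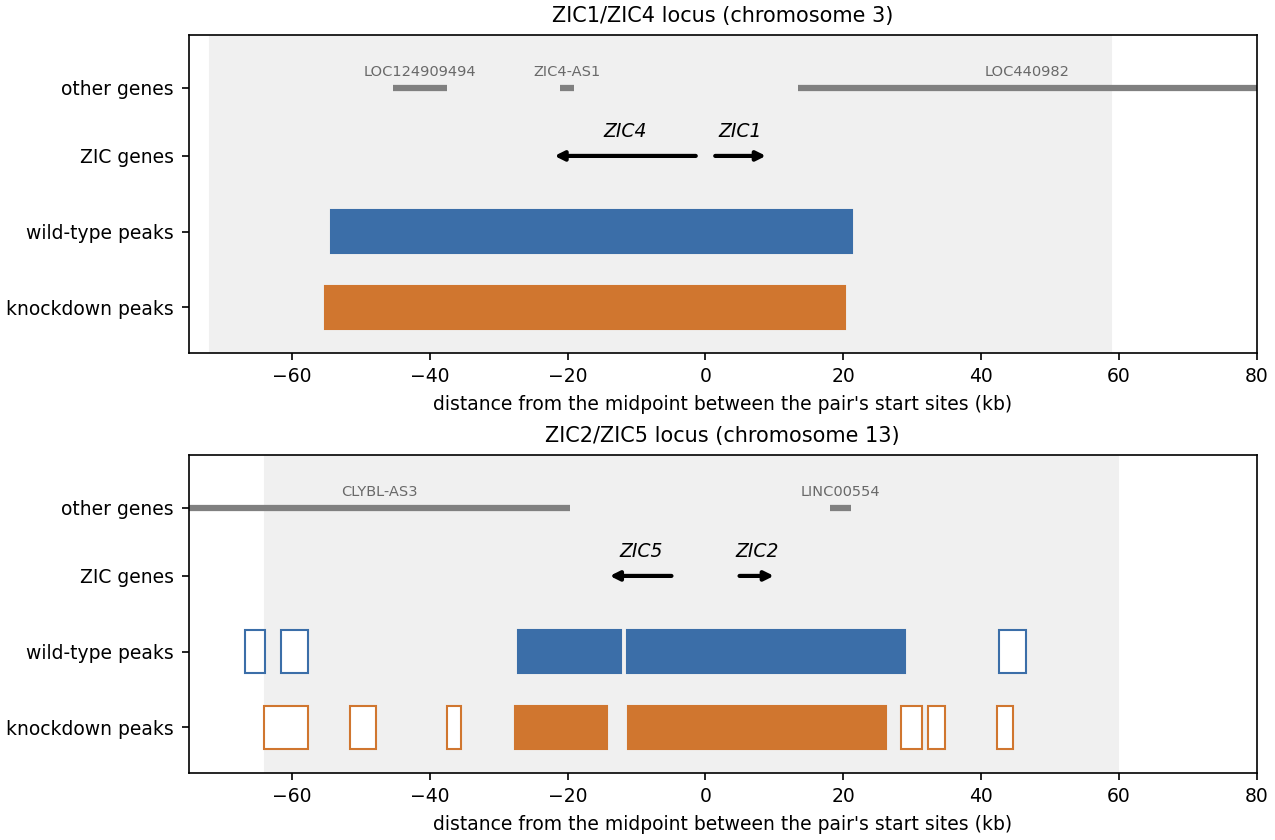
Peaks of the wild type (blue) and the YTHDF1 knockdown (orange) are drawn to scale at each locus against the distance in kb from the midpoint between the start sites of the pair. Filled boxes are peaks at the score ceiling of 1000, open boxes lower-scored peaks, arrows the ZIC genes in their direction of transcription, grey bars other annotated genes, and the grey background the locus window; ZIC1/ZIC4 has 1 peak in each list and ZIC2/ZIC5 has 5 and 8.

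In width, 26 wild-type peaks exceeded the ZIC1/ZIC4 peak in the one list and 6 knockdown peaks in the other. Of the 927 wild-type peaks of 20 kb or more, 234 (25.2%) met exactly 1 knockdown peak that met no other wild-type peak, and of the 86 of 50 kb or more 12 did (14.0%), the ZIC1/ZIC4 peak among them. Counted from the knockdown list, 192 of 603 peaks of 20 kb or more and 11 of 39 of 50 kb or more met exactly 1 wild-type peak in this way. The widths of the 12 pairs had ratios of knockdown to wild type from 0.883 to 1.04, with a median of 0.995. The ratio of 0.997 at ZIC1/ZIC4 was thus near the middle of the 12, and 3 of the 12 had both edges within 1 kb. Across the 927 wild-type peaks, a median of 88.6% of the peak lay inside knockdown peaks, and 852 of them had a lower share than ZIC1/ZIC4 (98.7%). Across the 603 knockdown peaks, a median of 98.1% lay inside wild-type peaks, and 328 of them had a lower share than ZIC1/ZIC4 (98.9%), which was thus near the middle of that list.

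**Figure D3:**
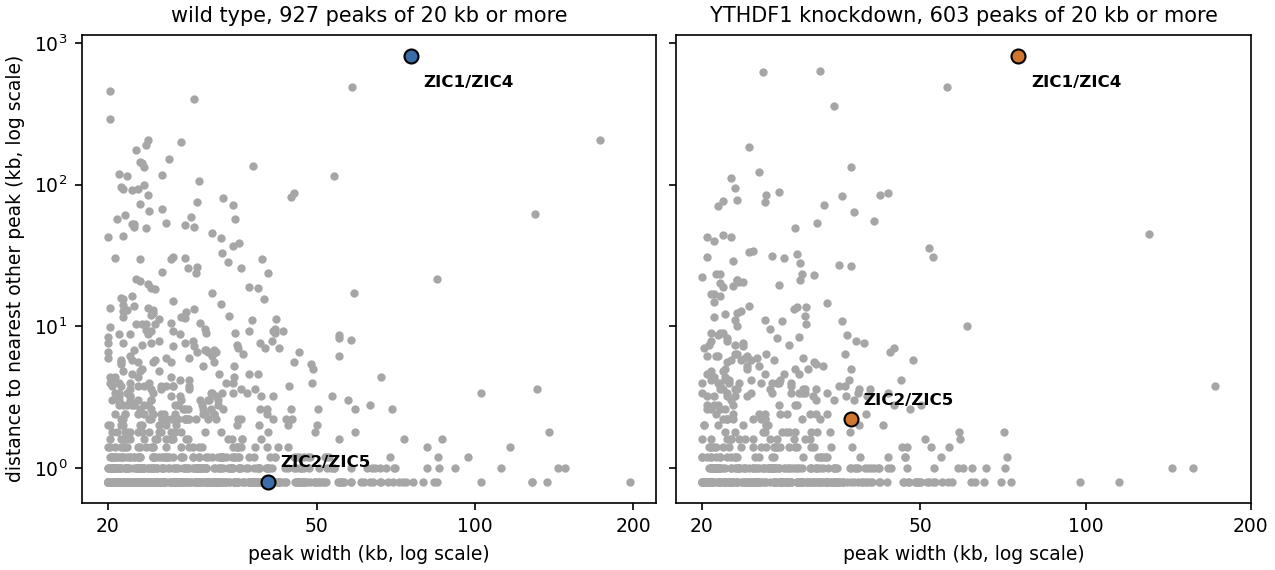
Each point is a peak of 20 kb or more, by its width (x axis, kb, log scale) and the distance to the nearest other peak of the same list (y axis, kb, log scale), in wild-type cells and the knockdown. The ZIC1/ZIC4 peak lies at the top of both panels, at 809 and 808 kb, and the widest ZIC2/ZIC5 peak near the bottom, at 0.8 and 2.2 kb.

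The ZIC2/ZIC5 locus differed from this: it lay in a pair of wide peaks among narrower ones. ZIC2 (chromosome 13, 99981784 to 99986765), a gene of forebrain development that is altered in holoprosencephaly, lay wholly inside 1 peak in each list. That peak measured 40.4 kb in wild-type cells (99965401 to 100005800) and 37.4 kb in knockdown cells (99965601 to 100003000). The left edge differed by 0.2 kb and the right edge lay 2.8 kb farther in, so the difference in this peak was on the side downstream of ZIC2. Past its right edge the knockdown list held a narrow peak of 3 kb (100005201 to 100008200, score 8.30) after a gap of 2.2 kb. That narrow peak ran beyond the wild-type edge. From the ZIC2 start the wide peak reached 24.0 kb downstream in wild-type cells and 21.2 kb in knockdown cells, and 16.4 and 16.2 kb upstream. The noncoding gene LINC00554, downstream of ZIC2, was wholly inside the peak in both lists. The pseudogene NDUFA12P1, farther downstream, had no bases in peaks in either.

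ZIC5 (99962964 to 99971909), known for a part in neural crest development, starts 9.88 kb from ZIC2 and was the member that lay inside no single peak in either list. Its start was in the same peak as ZIC2, and its downstream part met a gap between this peak and the next. The downstream end itself lay in the next peak in wild-type cells and in the gap in knockdown cells. The gap was 0.8 kb in wild-type cells (99964601 to 99965400), the smallest distance between peaks in either list, and lay wholly inside the gene. In the knockdown it was 3 kb (99962601 to 99965600), of which 2.64 kb lay inside the gene. As a result 91.1% of ZIC5 was in peaks in wild-type cells and 70.5% in knockdown cells. The peak on the far side of the gap measured 15 kb in wild-type cells (99949601 to 99964600) and 13.4 kb in knockdown cells (99949201 to 99962600). From the outer edge of one wide peak to that of the other, the region spanned 56.2 and 53.8 kb.

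Around the wide peaks the knockdown list held more narrow peaks. The wild type had 3 in the window, of 3, 4 and 4 kb, and the knockdown 6, from 2 to 6.4 kb. The window had 63.4 kb in peaks in wild-type cells and 70.4 kb in knockdown cells, a ratio of 1.11, with 57.0 kb in common, 6.4 kb in wild-type cells alone and 13.4 kb in knockdown cells alone. Of the 6, 3 knockdown peaks, of 3.8, 2 and 2.4 kb, touched no wild-type peak. Their scores were 4.31, 9.19 and 2.94, and 7.26%, 29.5% and 2.29% of the knockdown peaks had a lower score. All 6 wild-type peaks of both windows touched a knockdown peak. The shares of all wild-type and all knockdown peaks that touch a peak of the other list are not given here. These overlap counts therefore describe the windows only and show no gain or retention particular to them. The direction turned when peaks of low score were left out: in the upper 50% of each list by score the covered length was 55.4 kb in wild-type and 50.8 kb in knockdown cells. It also turned close to the genes, with 43.0 and 40.8 kb within 10 kb of the pair. On the whole of chromosome 13 the ratio of covered length was 0.887, and on chromosome 3 it was 0.888.

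The score is the authors' own value per peak. All 3 wide ZIC peaks were at its ceiling of 1000 in both lists. The ceiling was reached by 997 wild-type peaks (3.04%) and 643 knockdown peaks (1.87%). Of the 997, 625 (62.7%) touched a knockdown peak at the ceiling, and of the 643, 641 (99.7%) touched a wild-type peak at the ceiling. Start sites lay in a peak at the ceiling in both lists for 4 of the 4 ZIC genes and for 3.97% of the 15812 protein-coding genes with a strand in the table. Values beyond the ceiling cannot be told apart, so a difference in height at these peaks could not show.

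Read gene by gene, with the gene span and 50 kb either side, the 4 members had like shares of their windows in peaks. ZIC1 had 69.8 kb in peaks in wild-type cells (65.1% of its window) and 68.8 kb in knockdown cells (64.1%). ZIC4 had 75.6 kb (62.7%) and 75.4 kb (62.6%). ZIC2 had 59.4 kb (56.6%) and 60.4 kb (57.5%). ZIC5 had 61.9 kb (56.9%) and 70.4 kb (64.7%), the one member with a difference above 1 kb. In the wild type the order of covered length was therefore ZIC4, ZIC1, ZIC5, ZIC2, and in knockdown cells ZIC4, ZIC5, ZIC1, ZIC2. The windows of a pair overlap and the members of a pair share peaks, so the 4 values stand for 2 loci. All protein-coding genes had medians of 14.3 and 12.8 kb (9.14% and 8.34%). The covered length of the 4 members was above that of 86.0% to 91.8% of these genes in wild-type cells and of 90.6% to 95.2% in knockdown cells. The width of the peak at the start site stood farther out, above that of 98.1% to 99.5% of the genes in wild-type cells and 99.0% to 99.8% in knockdown cells.

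Covered length in knockdown cells divided by that in wild-type cells was 0.986 for ZIC1, 0.997 for ZIC4, 1.02 for ZIC2 and 1.14 for ZIC5. Covered length was thus shorter in knockdown cells for 2 members and longer for 2. Over all protein-coding genes it was shorter by any amount in 57.3% and longer in 28.9%, and the median ratio was 0.883. A ratio of at most 2/3 was reached by 18.9% of genes and one of at least 1.5 by 10.3%, and by none of the 4 members. Of the members, 3 lay wholly inside 1 peak in both lists, where 6.58% of all protein-coding genes did (9.54% in wild-type cells and 7.62% in knockdown cells). The 3 were ZIC1 (7.4 kb long) and ZIC4 (20.5 kb), which share a peak, and ZIC2 (5.0 kb). The share over all genes was not matched for gene length. The start sites of all 4 lay in peaks of 20 kb or more in both lists, against 3.47% of genes with a strand, while 54.6% had their start in a peak of any width in both.

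**Figure D4:**
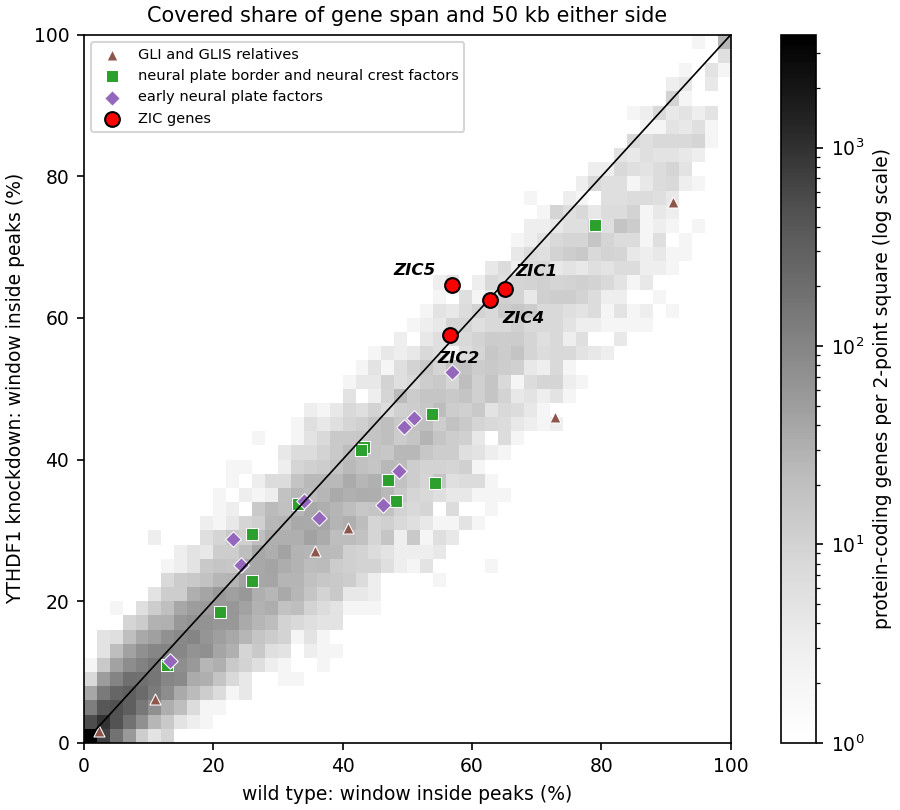
The share of the gene span and 50 kb either side inside peaks is plotted for the wild type (x axis, %) and the knockdown (y axis, %). Grey squares count all protein-coding genes, symbols mark the ZIC genes and 3 comparison lists, and the line marks equal shares; ZIC1, ZIC4 and ZIC2 sit within 1 percentage point of the line and ZIC5 above it, at 56.9% and 64.7%.

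Divergent pairs were a second point of comparison, since both ZIC loci have this layout. Among neighbouring protein-coding genes transcribed away from each other, 393 pairs had starts 1 to 10 kb apart. Both starts lay in the same peak in 36.6% of them in wild-type cells, in 31.0% in knockdown cells and in 27.0% in both lists. In 25 pairs (6.36%) that peak was 20 kb or wider in both lists, and ZIC1/ZIC4 and ZIC2/ZIC5 were 2 of the 25. Among 791 pairs with starts within 1 kb, the same peak held both starts in both lists in 61.3%, but it was 20 kb or wider in 2.53%.

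A further 3 groups of genes, also chosen with earlier results of these data known, were set beside the ZIC genes. The GLI and GLIS genes, which encode relatives of the ZIC zinc finger proteins, had wide coverage in some windows and shorter coverage in knockdown cells in 6 of 6, with a median ratio of 0.741. GLI2, an activator of hedgehog target genes, had 260.0 kb in peaks in wild-type cells and 164 kb in knockdown cells. GLI3, a factor that in its processed form represses hedgehog targets, had 44.2 and 24.8 kb, the lowest ratio of the list (0.561), and GLI2 and GLI3 were the 2 genes with a ratio of at most 2/3. GLIS2 had the highest ratio (0.839), with 114 and 95.4 kb. None of the 6 lay inside a single peak in both lists. Their windows ran from 112 to 766 kb, and those of the ZIC genes from 105 to 120.5 kb.

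Of the 12 neural plate border and neural crest factors, among which ZIC1 acts, 10 had shorter and 2 longer covered lengths in knockdown cells, with a median ratio of 0.877. None had a ratio of at most 2/3 or at least 1.5. PAX7, a neural crest factor, had the longest coverage, with 172 kb in wild-type cells and 159 kb in knockdown cells. PAX3, which acts beside ZIC1 at the neural plate border, had the highest ratio (1.14), with 51.8 and 58.8 kb. SOX10, a factor of the migrating neural crest, had the lowest (0.675), with 61.0 and 41.2 kb. Of the 12, 7 lay inside 1 peak in both lists, and the starts of 7 of the 8 with a strand lay in peaks of 20 kb or more in both.

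Of the 10 early neural plate factors, 7 had shorter and 3 longer covered lengths in knockdown cells, with a median ratio of 0.900 and none past either limit. LHX2, a forebrain factor, had the longest coverage, with 62.0 and 55.8 kb. SOX2, a factor of both pluripotent and neural cells, had the lowest ratio (0.726), with 47.4 and 34.4 kb, and RAX, an eye field factor, the highest (1.24), with 24.6 and 30.6 kb. Of the 10, 6 lay inside 1 peak in both lists, and the starts of 4 of the 8 with a strand lay in peaks of 20 kb or more in both. The median ratio of the ZIC genes was 1.01, but it stands for 2 loci, and the difference from the other gene groups was not tested.

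The genes whose windows had the most similar pair of covered shares were found by the distance in percentage points across the 2 libraries. For ZIC1/ZIC4 (57.9% and 57.7%) they were LCN12 at 0.504 points, MTHFSD at 0.631, ZCCHC3 at 0.756, APLP1 at 0.819 and RACGAP1 at 0.999. Their windows held 5 to 9 peaks in wild-type cells and 5 to 8 in knockdown cells, where the ZIC1/ZIC4 window held 1. LCN12, which encodes a lipocalin, had 57.5% and 58.1%, and APLP1, which encodes an amyloid precursor-like protein, 58.6% and 57.9%. For ZIC2/ZIC5 (51.2% and 56.9%) they were IMPDH1 at 1.12 points, AFMID at 1.29, BCL2L2-PABPN1 at 1.46, TBL2 at 1.84 and KLK15 at 1.93. IMPDH1, an enzyme gene of guanine nucleotide synthesis, had 50.4% and 56.2%, with 8 peaks in each list. The likeness is over 2 libraries only, and equal shares can come from 1 wide peak or from several narrow ones.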

How the data were processed

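Of 4 samples, the 2 H2AK119ub peak lists were used and the 2 input libraries were not analysed here. Per the submitters' processing notes, the build was hg38 and the tools included MACS2 2.1.0, SICER 1.1, Bowtie2 2.2.5, Trimmomatic 0.35, Picard and SAMtools 1.3.1, in no stated role. Not given in the sources used here are the caller, its thresholds and the use of input. The score per peak is the authors' deposited value, its unit is not given, and it ran from 2.00 to 1000. Starts were multiples of 200 bp and ends 1 bp below one, so ends were read as inclusive and positions printed from 1. Peaks on chromosomes 1 to 22 and X were kept (32791 of 32798 and 34390 of 34393).

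Gene positions, strands and start windows came from RefSeq tables of GRCh38.p14. Genes in scaffold coordinates were left out, and a strand was found for 15812 protein-coding genes. The outermost start of a gene is its annotated 5' boundary. Covered length is the number of bases in peaks, and peaks are shared with at least 1 bp in common. Coverage was computed with Python 3.11.15 and numpy 2.4.6 and tested on simulated peaks. Groups came from sample titles. The named genes were the members, the genes in the locus windows, the 5 nearest by covered shares without overlapping windows, and, in each list, the lowest and highest ratio and the longest wild-type coverage. Members and lists were chosen with earlier results of these data known.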

Additional observations from a re-analysis of the deposited data

How the results depend on the processing

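Other windows, the upper 50% of peaks by score, lists of equal length, leaving out peaks under 2 kb, joining peaks at most 2 kb apart and a mutual overlap of 50% gave 54 alternative values, of which 38 stayed as they were (a ratio within 0.05, a count within 1.5 times). At ZIC1/ZIC4 every alternative run did, with covered length ratios from 0.985 to 1 and 1 peak per list. At ZIC2/ZIC5 the covered length ratio of 1.11 turned to 0.917 in the upper 50% by score and to 0.949 within 10 kb, and was 1.05 within 25 kb. The peak number ratio there of 1.6 was 1 within 10 kb and for the upper 50%, 2.5 within 25 kb, 1.4 with lists of equal length and 1.75 with peaks joined. Joining also moved the ratio of the widest peak from 0.926 to 0.665, as the wild-type gap over ZIC5 closed (56.2 kb against 37.4 kb) and the 3 kb knockdown gap did not. Shared wild-type peaks numbered 6 of 6 in both windows, 3 of 3 within 10 kb, within 25 kb and in the upper 50%, and 10 of 11 within 100 kb. Shared knockdown peaks numbered 6 of 9, 3 of 3 within 10 kb and in the upper 50%, and 13 of 17 within 100 kb. The shares over all peaks of each list are not given here, so these counts describe the windows only. The members inside 1 peak stayed at 3. No paired analysis was possible because each group had 1 library. Depth is unknown, so a narrow peak in one list alone can lie just under the threshold in the other.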

Other observations

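Farther out, the loci differed in their surroundings. Within 500 kb of the ZIC1/ZIC4 pair neither list had a peak beyond the one over the pair, so that 7.34% of this region was in peaks in wild-type cells and 7.32% in knockdown cells. The nearest peaks lay 841 kb to the left of the pair in both lists, and 1281 kb to its right in wild-type cells and 1280 kb in knockdown cells. The nearest annotated protein-coding genes outside the window were PLSCR5, of the phospholipid scramblase family, at 781 kb to the left, with no bases in peaks in either list, and AGTR1, the angiotensin II receptor gene, at 1281 kb to the right, with 2.6 kb in peaks in wild-type cells and 2.098 kb in knockdown cells.

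Within 500 kb of the ZIC2/ZIC5 pair, 20 wild-type and 31 knockdown peaks lay outside the locus window, none wider than 11.2 and 12.4 kb. The region had 158 kb in peaks in wild-type cells (15.4%) and 193 kb in knockdown cells (18.9%). CLYBL, a mitochondrial lyase gene 53.5 kb to the left, had 75.9 and 82.0 kb of its span in peaks. Its antisense gene CLYBL-AS3 had 48.5 and 58.0 kb, but it overlaps CLYBL and reaches into the locus window, so these values are not separate. PCCA, which encodes a subunit of propionyl-CoA carboxylase and lies 102 kb to the right, had 6.91 and 17.3 kb. The longer coverage in knockdown cells near ZIC2/ZIC5 was thus also present in CLYBL and PCCA, which lie outside the locus window. Whether a difference in depth or background between the libraries had a part in it was not tested.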
